A study of Mus musculus with 8 samples.

Results

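De novo fatty acid synthesis, the making of fatty acids from carbohydrate and other small carbon sources, is described here through 10 genes in 8 RNA sequencing libraries labelled as mouse liver. The members were taken by name: the regulators Srebf1, Mlxipl and Thrsp, and Acly, Acaca, Acacb, Fasn, Scd1, Elovl6 and Pnpla3, called enzymes below. All 10 are among the 21049 gene symbols of the deposited table, and 9 of them reached the minimum level for testing. The control group is 4 samples given saline and the alcohol group is 4 samples given alcohol. All 8 carry the labels wild type and hepatocyte, and the design text names the inbred mouse strain C57BL/6 and feeding with alcohol. The sources used here give no age, dose, length of feeding or time since the last meal. The labels also name AML12, a mouse hepatocyte line, but the Kupffer cell gene Clec4f (5.06 to 15.6 FPKM) and the red cell gene Alas2 (30.5 to 61.5 FPKM) were read in every library. No label ties a sample to its own animal. The p-values therefore cover only the spread among these samples, which may be technical.

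In liver, citrate exported from mitochondria is cleaved to acetyl-CoA, acetyl-CoA is carboxylated to malonyl-CoA, and fatty acid synthase builds palmitate from both. Palmitate is then lengthened and desaturated, mainly to oleate. The transcription factor SREBP-1, made from Srebf1 and driven by insulin, and ChREBP, made from Mlxipl and driven by sugar metabolites, are the textbook activators of these genes, and Srebf1 and Mlxipl each give rise to more than 1 protein form from separate starts. Gene-level values do not separate those forms. SREBP-1 is made as a membrane precursor that must be carried to the Golgi and cut before it acts, so its transcript level is not its activity.

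Promoter windows of 4 members are printed because the results turn on them: the regulators Srebf1 and Mlxipl, an enzyme that fell and an enzyme that rose. Each window is the 250 bases before a RefSeq start on GRCm38.p6, written 5′ to 3′ on the strand of the gene, and 9 of the 10 members were matched by symbol (all but Scd1). Capitals mark matches, on either strand, to TCACNCCAC (the sterol regulatory element) or its first letters TCACCC, to CACGTG (the E-box), to CCAAT (the NF-Y box) and to GGGCGG (the GC box). TCACNCCAC contains TCACCC where its N is C, and in the Fasn window CCAAT matches overlap each other. Srebf1 has 3 windows, and the one shown is the farthest downstream and alone among them holds a TCACCC match. Mlxipl has 2, and both are shown.
Srebf1, chr11:60210472-60210721, minus strand: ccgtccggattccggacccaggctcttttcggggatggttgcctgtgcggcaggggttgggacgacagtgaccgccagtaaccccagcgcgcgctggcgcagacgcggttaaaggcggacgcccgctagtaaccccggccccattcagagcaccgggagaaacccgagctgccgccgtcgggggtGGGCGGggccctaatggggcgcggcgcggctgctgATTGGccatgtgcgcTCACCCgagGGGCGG
Mlxipl, chr5:135089640-135089889, plus strand: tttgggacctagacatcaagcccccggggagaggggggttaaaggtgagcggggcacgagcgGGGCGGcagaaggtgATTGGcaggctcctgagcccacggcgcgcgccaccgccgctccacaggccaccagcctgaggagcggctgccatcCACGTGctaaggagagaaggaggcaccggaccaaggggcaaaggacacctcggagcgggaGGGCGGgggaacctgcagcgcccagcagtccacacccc
Mlxipl, chr5:135106641-135106890, plus strand: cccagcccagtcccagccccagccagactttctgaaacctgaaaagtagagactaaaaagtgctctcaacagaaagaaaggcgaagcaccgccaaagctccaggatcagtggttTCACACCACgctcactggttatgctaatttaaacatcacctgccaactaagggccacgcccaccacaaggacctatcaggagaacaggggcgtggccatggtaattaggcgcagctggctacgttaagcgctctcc
Fasn, chr11:120824548-120824797, minus strand: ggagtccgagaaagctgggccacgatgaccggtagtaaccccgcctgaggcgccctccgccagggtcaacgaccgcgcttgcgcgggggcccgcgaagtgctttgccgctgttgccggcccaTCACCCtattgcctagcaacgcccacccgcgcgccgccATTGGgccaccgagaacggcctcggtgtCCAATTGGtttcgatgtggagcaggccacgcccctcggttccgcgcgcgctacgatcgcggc
Elovl6, chr3:129532136-129532385, plus strand: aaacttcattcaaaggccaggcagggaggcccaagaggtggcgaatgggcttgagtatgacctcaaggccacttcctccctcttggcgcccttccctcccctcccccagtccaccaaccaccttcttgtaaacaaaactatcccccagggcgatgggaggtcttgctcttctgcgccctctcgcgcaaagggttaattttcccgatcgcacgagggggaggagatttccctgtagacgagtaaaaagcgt

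The full sterol regulatory element was found in 1 of the 12 member windows, the second of Mlxipl, and in 1.05% of 32851 windows of the same length over all genes. Its first letters were found in 3 of the 12, of Srebf1, Fasn and Pnpla3, against 13.83% of all windows, and the E-box in 1, the first of Mlxipl, against 6.02%. CCAAT matched in 7 of the 12 member windows (33.85% of all windows) and GGGCGG in 5 of the 12 (32.74%). The windows of Elovl6 and Acaca held none of these motifs, and that of Acaca (chr11:84195188-84195437) lies before a start inside the annotated gene. The Acacb window, the Srebf1 window shown and the second Mlxipl window also lie wholly inside their annotated genes. So does a Srebf1 window not shown (chr11:60220628-60220877). A match is a string of letters and not a measured binding site, and no match says only that these letters are not in the window.

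Library totals recovered from the values were 33872595 to 34789814 reads in controls and 37132631 to 38407511 with alcohol. Levels are FPKM, fragments per kilobase of gene scaled to the fragments of the library, so levels of different genes can be compared. Changes are alcohol minus control on the log2(FPKM + 1) scale with limma's standard error (SE), and a gene was called at an adjusted p under 0.05. Among 9228 tested genes 44.2% were called higher and 13.0% lower, and the median log2 change was 0.24. Of all calls 77.2% were higher, against 49.4% after median-of-ratios scaling (2386 higher, 2446 lower, median change -0.0027). The share was 49.1% after quantile normalization (2221 higher, 2307 lower, median change -0.0083) and 85.7% on the TPM scale (median change 0.40). A member's change is therefore to be read beside the median of 0.24. Summed levels of 5 endothelial markers ran from 10.9 to 17.3 FPKM in controls and 51.5 to 60.5 FPKM with alcohol, and 5 of 5 were called higher. Those of 5 stellate cell markers ran from 35.9 to 66.3 and 97.3 to 137 FPKM, with 3 of 5 higher, while by limma 0 of 4 tested Kupffer cell markers were called (1 lower at an unadjusted p under 0.05). Their part in the results was not tested. Adipose cells also express the members strongly. Of 10 adipocyte markers 5 stayed below 1 FPKM in every sample, among them Adipoq and Plin1. Of the other 5, Fabp4, Slc2a4 and Pparg were called higher and Cfd and Lpl lower. Cfd stood at 3.30 to 25.3 FPKM in controls and 0 to 0.234 with alcohol, and Fabp4 at 2.52 to 7.10 and 8.49 to 22.9 FPKM. The list summed to 16.9 to 37.2 FPKM in controls and 22.6 to 37.4 with alcohol. The part of adipose cells in the results was not tested. The 7 hepatocyte markers, led by Alb and Apoa1, summed to 54564 to 61968 FPKM in controls and 50376 to 59978 with alcohol, with 2 of 7 higher and 2 lower.

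Transcripts of the pathway did not move together with alcohol. Srebf1 fell to 0.326 of its control level (ratio of mean FPKM) while Mlxipl and Thrsp did not pass the test. Among the enzymes Acaca rose 2.16-fold and Elovl6 2.52-fold, Fasn fell to 0.609 of its control level, and Acly, Acacb and Scd1 did not pass. Of the 9 tested members 2 were called higher and 2 lower, 4 of 9 in all, beside 57.2% of all tested genes called in either direction. The groups did not overlap for those same 4 members, 2 above and 2 below, beside 50.2% of all tested genes (39.5% above and 10.7% below). The median log2 change of the 9 was 0.22.

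**Figure D1:**
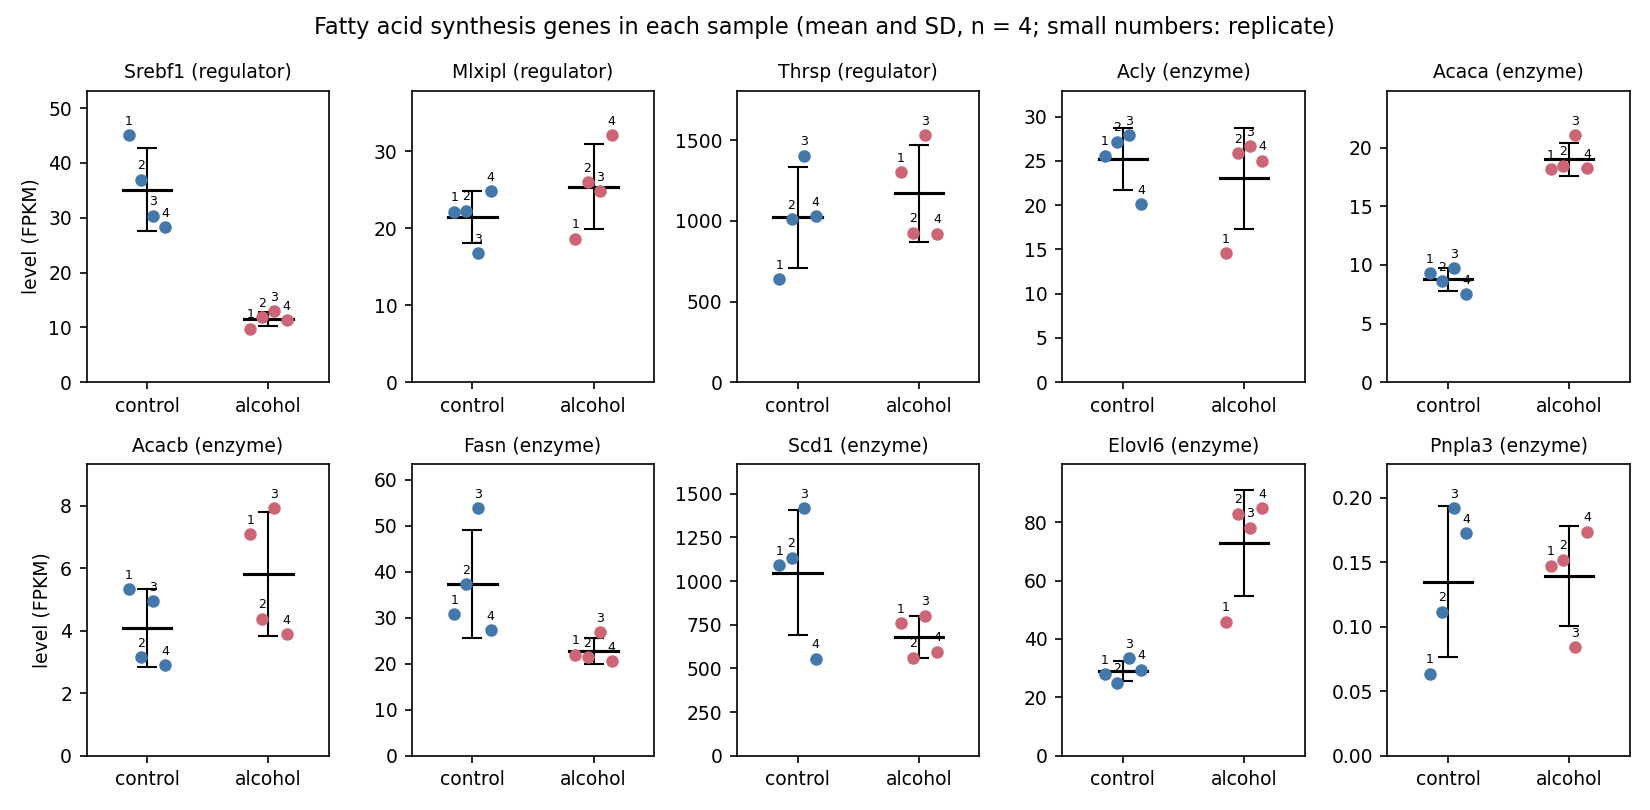
Level of each member in FPKM (vertical axes, linear, from 0) in the 4 control and 4 alcohol samples, with the group mean and SD as bars and replicate numbers beside the points. Srebf1 and Fasn lay lower in all 4 alcohol samples, Acaca and Elovl6 higher in all 4, and the groups overlapped for the other 6 genes.

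Srebf1, which encodes SREBP-1, stood at 45.1, 36.9, 30.3 and 28.2 FPKM in control replicates 1 to 4 and at 9.79, 11.9, 12.9 and 11.3 FPKM in alcohol replicates 1 to 4. Every alcohol sample was below every control, and the highest alcohol sample was at 12.9 against a lowest control of 28.2 FPKM. The mean went from 35.1 ± 7.59 to 11.5 ± 1.31 FPKM (SD, n = 4 per group), a log2 change of -1.52 ± 0.15 (SE), limma adjusted p = 2.14e-05. Only 0.845% of tested genes had a lower value of this change. In GENCODE M21 on GRCm38 Srebf1 lies on chromosome 11 from 60199089 to 60222581 on the minus strand. Its exons share 109 bases (1.93%) with Rai1 on the other strand, which stood at 0.123 to 0.398 FPKM, and no source used here gives the strand setting of the counting.

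Mlxipl, which encodes ChREBP, stood at 22.1, 22.3, 16.8 and 24.8 FPKM in controls and at 18.7, 26.0, 24.8 and 32.1 FPKM with alcohol. The groups overlapped, with the lowest alcohol sample inside the control range. Its log2 change was 0.22 ± 0.17 (SE), limma adjusted p = 0.275, close to the median of all genes, and it was -0.07 under median-of-ratios scaling.

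Thrsp encodes Spot 14, a small nuclear and cytosolic protein induced by thyroid hormone and carbohydrate, which is not a DNA-binding factor and is counted here as a regulator of the enzymes. It was the most abundant regulator, at 639, 1012, 1405 and 1029.7 FPKM in controls and 1303, 926, 1533 and 922 FPKM with alcohol. Samples of both groups were interleaved, and the spread within each group was larger than the difference between their means of 1022 ± 313 and 1171 ± 300 FPKM (SD, n = 4 per group). The log2 change was 0.22 ± 0.25 (SE), limma adjusted p = 0.47, and -0.09 with median-of-ratios scaling.

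Acly, the ATP citrate lyase that makes cytosolic acetyl-CoA, stood at 25.6, 27.2, 27.9 and 20.1 FPKM in controls and 14.5, 25.9, 26.7 and 25.0 FPKM with alcohol. Alcohol replicate 1 was the lowest of all 8 samples and the other alcohol samples lay within the control range. The log2 change was -0.15 ± 0.19 (SE), limma adjusted p = 0.504, and 0.05 without that replicate.

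Acaca encodes acetyl-CoA carboxylase 1, the cytosolic enzyme whose malonyl-CoA feeds fatty acid synthase. It stood at 9.29, 8.60, 9.73 and 7.48 FPKM in controls and 18.2, 18.4, 21.1 and 18.3 FPKM with alcohol. The lowest alcohol sample was far above the highest control, and both groups were tight. The mean went from 8.78 ± 0.98 to 19.0 ± 1.40 FPKM (SD, n = 4 per group), a log2 change of 1.03 ± 0.10 (SE), limma adjusted p = 2.54e-05, larger than that of 93.4% of tested genes. These values rest on 2700 to 8622 recovered reads per library. Acaca lies on chromosome 11 from 84129672 to 84401651 on the plus strand of GRCm38.

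Acacb encodes acetyl-CoA carboxylase 2, bound to mitochondria, whose malonyl-CoA restrains fatty acid entry for oxidation. It stood at 5.33, 3.15, 4.95 and 2.89 FPKM in controls and 7.08, 4.38, 7.91 and 3.89 FPKM with alcohol. Alcohol replicates 1 and 3 were above all controls, while replicates 2 and 4 lay within the control range. The log2 change was 0.41 ± 0.22 (SE), limma adjusted p = 0.137.

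Fasn encodes fatty acid synthase, which makes palmitate. Its level was 30.7, 37.3, 53.8 and 27.4 FPKM in controls and 22.0, 21.4, 26.8 and 20.6 FPKM with alcohol. The highest alcohol sample came just under the lowest control, and the controls spread far more than the alcohol samples. The mean went from 37.3 ± 11.7 to 22.7 ± 2.81 FPKM (SD, n = 4 per group), a log2 change of -0.65 ± 0.19 (SE), limma adjusted p = 0.0119. Without control replicate 3 the log2 change was -0.46 and still passed (adjusted p = 0.0216, range over the 17 alternatives 0.00157 to 0.042). Fasn lies on chromosome 11 from 120805846 to 120824547 on the minus strand.

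Scd1, the stearoyl-CoA desaturase that makes oleate and palmitoleate, was the most abundant enzyme of the set. It stood at 1092, 1134, 1416 and 555 FPKM in controls and 760.1, 560.3, 801 and 595 FPKM with alcohol. Control replicate 4 was below all alcohol samples and the other 3 controls were above all of them. The log2 change was -0.56 ± 0.26 (SE), limma adjusted p = 0.085. Without control replicate 4 it was -0.84 and passed (adjusted p = 0.00399), and with median-of-ratios scaling it was -0.87 and passed (adjusted p = 0.0171, range over the alternatives 0.00399 to 0.229). Scd paralogs are alike in sequence, and Scd2, Scd3 and Scd4 reached at most 1.73 FPKM.

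Elovl6, which lengthens palmitate to stearate, stood at 27.9, 25.0, 33.3 and 29.4 FPKM in controls and 45.9, 83.0, 78.1 and 84.7 FPKM with alcohol. All alcohol samples were above all controls, and replicate 1 rose the least of the 4. The mean went from 28.9 ± 3.47 to 72.9 ± 18.2 FPKM (SD, n = 4 per group), a log2 change of 1.27 ± 0.19 (SE), limma adjusted p = 0.000269. It lies on chromosome 3 from 129532355 to 129638495 on the plus strand, and 34 of its exon bases (0.53%) overlap the antisense gene Gm35986.

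Pnpla3, adiponutrin, is a lipid droplet lipase and acyltransferase rather than a synthesis enzyme, known as a target of SREBP-1. It was close to the floor of detection, with 11, 19, 33 and 29 recovered reads in controls and 28, 28, 16 and 32 with alcohol, and its level was 0.0637 to 0.192 FPKM over all samples. It lay below the minimum of 1 FPKM and was not tested with the other genes. Relative to the library totals it had 1.03 times as many reads with alcohol (95% exact interval 0.771 to 1.38, counting error only). The reads varied by more than that interval between samples of 1 group, so it does not bound the difference between the groups. In the fit of all 21049 listed genes its log2 change was 0.0064 ± 0.040 (SE), limma adjusted p = 0.931.

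**Figure D2:**
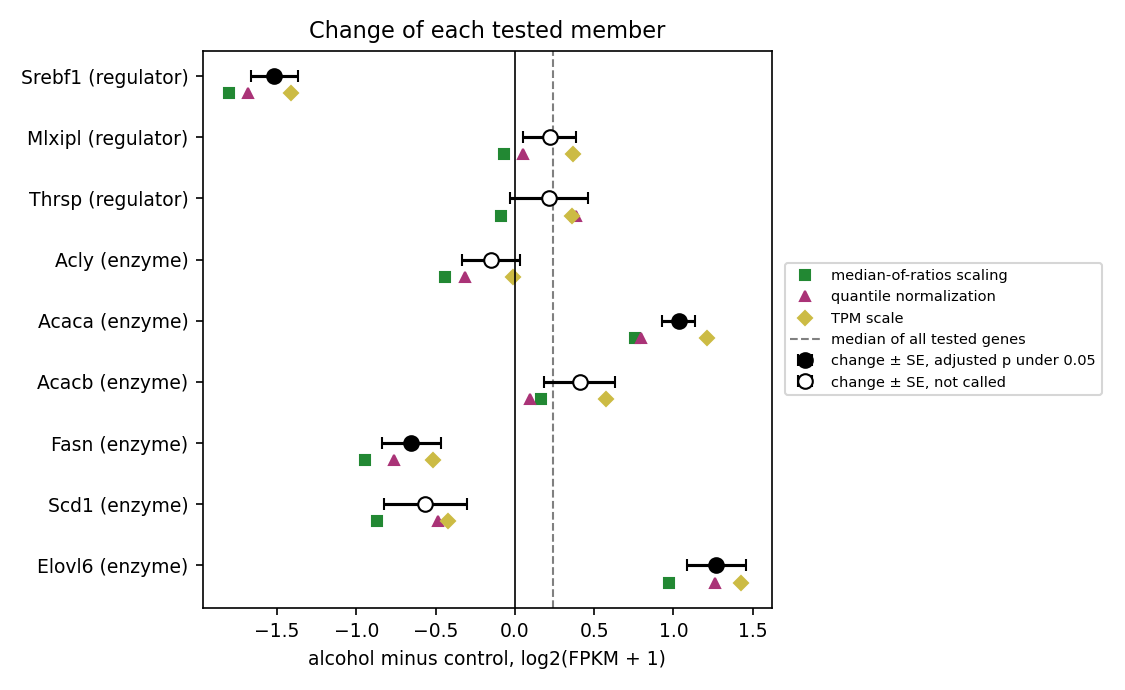
Log2 change of the 9 tested members (horizontal axis, alcohol minus control on the log2(FPKM + 1) scale, black points with SE, filled where the adjusted p was under 0.05), with the value under 3 other scalings as coloured symbols. Srebf1, Fasn, Acaca and Elovl6 keep their side of 0 under every scaling drawn, as do the uncalled Acly, Acacb and Scd1. Mlxipl and Thrsp sit near the dashed median of all tested genes at 0.24 and cross 0 with median-of-ratios scaling.

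The order of the levels changed with alcohol. In controls the means ran from Scd1 (1049 FPKM) and Thrsp (1022 FPKM) through Fasn, Srebf1, Elovl6, Acly and Mlxipl, at 37.3 down to 21.5 FPKM, to Acaca (8.78 FPKM), Acacb (4.08 FPKM) and Pnpla3 (0.135 FPKM). Scd1 and Thrsp overlapped, as did neighbours from Fasn to Mlxipl, while Acaca lay below all 7 genes above it and above Acacb in every control. With alcohol Thrsp lay above Scd1 in every sample, Elovl6 moved to the third place at 72.9 FPKM, and Srebf1 from the fourth to the eighth at 11.5 FPKM, below all samples of Acaca. Mlxipl, Acly, Fasn and Acaca, at 25.4 down to 19.0 FPKM, overlapped with alcohol. Since each level is read over all cells of a sample, fewer cells of a type and less RNA per cell cannot be told apart.

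Within the groups several members, regulators among them, were highest or lowest in the same samples. Control replicate 3 was the highest control for Thrsp, Acly, Acaca, Fasn, Scd1 and Elovl6, and control replicate 4 was the lowest for Srebf1, Acly, Acaca, Acacb, Fasn and Scd1. Srebf1 was highest in control replicate 1, where Thrsp was lowest. In the alcohol group replicate 3 was the highest for 7 of the 9 tested members (Srebf1, Thrsp, Acly, Acaca, Acacb, Fasn and Scd1). With 4 samples a group no correlation was computed. These ranks were not counted over all tested genes, so whether they are particular to the members was not tested. Alcohol replicates 2 and 4 were more alike than any other pair, with a chi-square per gene of 7.63 between recovered reads against 38.7 to 154 for other pairs within a group. With these 2 averaged and counted as 1 sample the same 4 members were called, with log2 changes of -1.52 for Srebf1, 1.05 for Acaca, -0.62 for Fasn and 1.19 for Elovl6.

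The ratio of 2 genes within a sample does not depend on how the library was scaled. Relative to Srebf1, all 6 enzymes other than Pnpla3 were higher in every alcohol sample than in every control, with log2 differences of 0.92 to 2.90. The same held for 94.7% of the other tested genes (0.249% separated downward), so this count is near the background and is not particular to the enzymes. Fasn, whose own level fell, went from 0.681 to 1.77 times the Srebf1 level in controls to 1.80 to 2.25 times with alcohol. For Scd1 the groups only just separated, at 19.7 to 46.7 times in controls and 47.1 to 77.7 times with alcohol. Acaca went from 0.206 to 0.321 times the Srebf1 level to 1.55 to 1.86 times, a 6.57-fold difference of geometric means. Elovl6 went from 0.620 to 1.10 times to 4.69 to 7.51 times, a 7.45-fold difference. Each log2 difference is the change of the enzyme minus that of Srebf1, both without a pseudocount. The ratios to Srebf1 therefore carry no independent count.

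Relative to Mlxipl 1 of 6 enzymes, Elovl6, separated upward, from 1.12 to 1.99 times in controls to 2.46 to 3.19 times with alcohol, and 0 separated downward, beside 13.1% upward and 9.91% downward of the other tested genes. Relative to Thrsp 1 of 6, Fasn, separated downward, from 0.0266 to 0.0481 times in controls to 0.0169 to 0.0231 times with alcohol, and 0 separated upward, beside 5.82% downward and 5.27% upward of the other tested genes. The log2 differences ran from -0.90 to 1.07 relative to Mlxipl and from -0.89 to 1.08 relative to Thrsp. Mlxipl and Thrsp themselves went from 0.491 to 0.878 and from 14.2 to 46.3 times the Srebf1 level in controls to 1.91 to 2.85 and 77.9 to 133 times with alcohol.

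**Figure D3:**
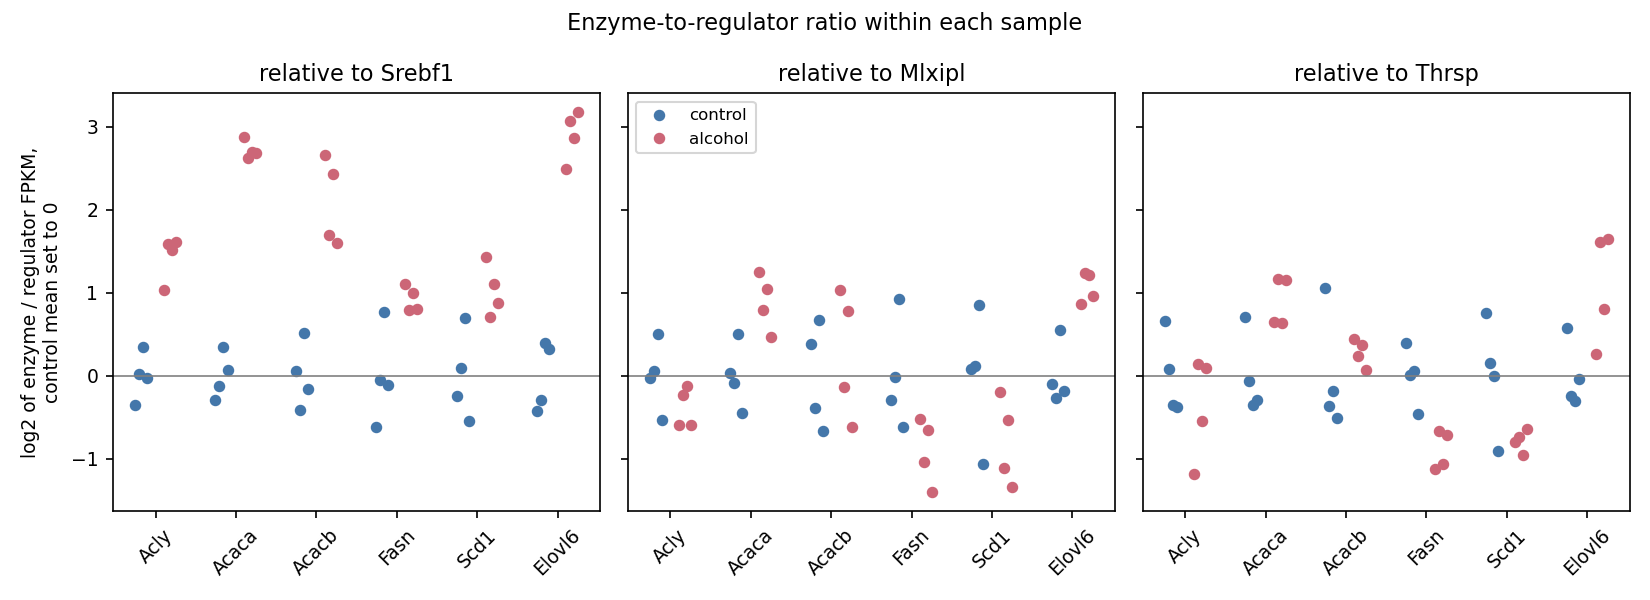
Log2 of the FPKM of each of 6 enzymes over that of Srebf1, Mlxipl or Thrsp in the same sample (vertical axis, with the mean of the 4 controls set to 0), control samples in blue and alcohol samples in red. All alcohol points lie above all control points in the Srebf1 panel, as for 94.7% of the other tested genes, with the smallest gap for Fasn and Scd1, while in the other panels the groups separate only for Elovl6 over Mlxipl and for Fasn over Thrsp.

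Consecutive enzymes also moved apart, in a ratio chosen after its values were seen. Fasn stood at 3.31, 4.34, 5.53 and 3.66 times the level of Acaca in control replicates 1 to 4 and at 1.21, 1.16, 1.27 and 1.13 times in the alcohol replicates. The lowest control was above the highest alcohol sample, and the log2 difference was -1.79. Fasn was lower and Acaca higher in every alcohol sample than in every control, so this ratio had to separate. It restates those changes and is no further result. The share of all tested genes that separate relative to Acaca was not computed. Elovl6, which acts beside Scd1 on new palmitate, went from 0.0221 to 0.0531 times the level of Scd1 in controls to 0.0604 to 0.148 times with alcohol.

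The genes that carry, hold and cut SREBP were also measured, from a list made with earlier results of these data known. Of 11 tested genes for SREBP processing and its partner receptors 5 were called higher and 1 lower, and the median log2 change was 0.32, beside 44.2% of all tested genes higher and 13.0% lower. Under median-of-ratios scaling the counts were 3 higher and 2 lower. Scap escorts SREBP to the Golgi and the INSIG proteins hold both back in the endoplasmic reticulum. Insig1, itself a target of SREBP, fell from 39.7 ± 10.6 to 14.8 ± 4.31 FPKM (SD, n = 4 per group), a log2 change of -1.37 ± 0.23 (SE), adjusted p = 0.000635. Its 4 control values were 48.2, 49.5, 29.4 and 31.6 FPKM and its alcohol values 9.09, 18.4, 14.0 and 17.8 FPKM, with no overlap. Insig2, a paralog whose liver transcript is lowered by insulin, rose from 11.5, 9.24, 15.2 and 9.23 FPKM to 49.4, 45.2, 50.2 and 42.5 FPKM. Its log2 change was 1.98 ± 0.15 (SE), adjusted p = 3.71e-06. Insig2 stood at 0.187 to 0.516 times the level of Insig1 in controls and 2.38 to 5.44 times with alcohol, so the more abundant paralog was Insig1 in every control and Insig2 in every alcohol sample. Scap rose from 15.4 ± 4.70 to 24.3 ± 2.24 FPKM (adjusted p = 0.00699, and 0.0551 under median-of-ratios scaling), with control replicate 1 at 22.1 FPKM just under the lowest alcohol sample at 22.7 FPKM. The proteases Mbtps1 and Mbtps2, which cut SREBP in the Golgi, rose by 0.63 and 0.61 (log2), adjusted p = 0.00162 and 0.000308. Nr1h2, the receptor LXR beta, rose by 0.45 (adjusted p = 0.00132), a call lost under median-of-ratios scaling and quantile normalization (adjusted p = 0.115 and 0.134, range over the alternatives 0.000339 to 0.134). Nr1h3, the LXR alpha that drives Srebf1 transcription, stood at 35.0 ± 2.82 and 38.9 ± 3.17 FPKM (adjusted p = 0.23), and Srebf2 at 4.52 ± 1.25 and 5.11 ± 0.631 FPKM (adjusted p = 0.365).

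**Figure D4:**
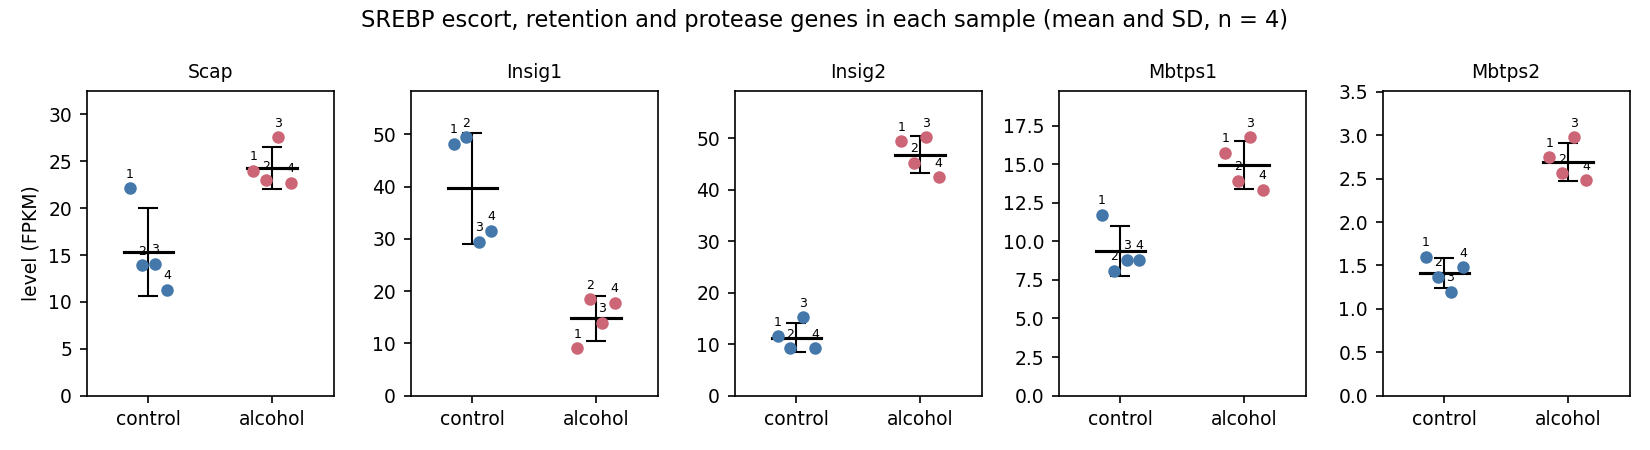
Level in FPKM (vertical axes, linear, from 0) of the escort Scap, the retention genes Insig1 and Insig2 and the proteases Mbtps1 and Mbtps2 in the 4 control and 4 alcohol samples, with mean and SD. Insig1 was lower and Insig2 higher in all 4 alcohol samples than in any control.

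Most genes of the ChREBP partner and carbohydrate list were not called. Of 8 tested genes 6 were not called, 1 was called higher and 1 lower, beside 44.2% higher and 13.0% lower of all tested genes. The median log2 change of the list was 0.06. Under median-of-ratios scaling 0 were called higher and 2 lower, and on the TPM scale 3 higher and 1 lower. Khk, the fructose-phosphorylating ketohexokinase, rose from 274 ± 49.8 to 457 ± 112 FPKM (log2 change 0.72, adjusted p = 0.0106), a difference that missed the threshold under median-of-ratios scaling (adjusted p = 0.135, range over the alternatives 0.000671 to 0.135). Rgs16, a G protein regulator induced by ChREBP, fell by 1.27 (log2 scale, adjusted p = 0.0269), with alcohol replicate 3 at 119 FPKM and the other 3 at 31.7 to 36.1 FPKM. The Rgs16 call was lost without control replicate 2, 3 or 4 or alcohol replicate 1, 2 or 4 (adjusted p = 0.0598 to 0.0758). The pyruvate kinase Pklr, a classical ChREBP target, stood at 197 ± 40.6 and 173 ± 35.5 FPKM and did not pass (adjusted p = 0.435).

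In the supply of carbon and NADPH 4 of 10 tested genes were called higher and 2 lower, with a median log2 change of 0.12, beside 44.2% and 13.0% of all tested genes. Under median-of-ratios scaling the balance turned to 2 higher and 4 lower. The pyruvate dehydrogenase subunit Pdhb rose from 84.9 ± 2.47 to 179.9 ± 18.1 FPKM (adjusted p = 2.19e-05) and the citrate synthase Cs from 39.2 ± 4.70 to 67.7 ± 2.41 FPKM (adjusted p = 0.000161). The malic enzyme Me1, which makes NADPH for the synthase, rose from 46.8 ± 10.2 to 78.0 ± 11.6 FPKM (adjusted p = 0.00311), which did not pass under median-of-ratios scaling (adjusted p = 0.061, range over the alternatives 0.000603 to 0.061). Idh1, the cytosolic isocitrate dehydrogenase, fell from 159.9 ± 10.7 to 97.1 ± 1.15 FPKM (adjusted p = 0.000158). The sixth called gene, Slc25a1, carries citrate out of the mitochondrion and was chosen after its values were seen. It fell from 125 ± 13.4 to 92.2 ± 6.66 FPKM (log2 change -0.43, adjusted p = 0.00739), and Acly, the next step, did not pass.

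Of 8 tested genes that set malonyl-CoA, the AMPK subunits, LKB1, malonyl-CoA decarboxylase and Mid1ip1, 6 were called higher and 0 lower by limma (0 lower also at an unadjusted p under 0.05), with a median log2 change of 0.42. Of all tested genes 44.2% were called higher and 13.0% lower, with a median of 0.24. When 1 sample was left out, 4 to 5 genes of this list were called higher. AMPK phosphorylates and inhibits both acetyl-CoA carboxylases. Its subunit genes Prkag2 (0.79, adjusted p = 0.000445), Prkaa1 (0.43, adjusted p = 0.00772), Prkab1 (0.42, adjusted p = 0.00802) and Prkaa2 (0.60, adjusted p = 0.0101) rose on the log2 scale. With median-of-ratios scaling and with quantile normalization 1 gene of this list was called higher and 2 lower, and the calls of Prkaa1, Prkab1 and Prkaa2 were lost under both (adjusted p up to 0.385, 0.304 and 0.1002).

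Among 10 tested genes of the elongation cycle and other desaturases 1 was called higher and 5 lower, beside 44.2% and 13.0% of all tested genes. The median log2 change of the list was -0.30, opposite in sign to the median of all genes. The lower calls numbered 3 without control replicate 3, where Fads1 (adjusted p = 0.053) and Tecr (adjusted p = 0.0593) did not pass, and 3 on the TPM scale. Elovl2 and Elovl5, which lengthen polyunsaturated fatty acids, fell by 1.70 and by 1.17 on the log2 scale (adjusted p = 1.25e-05 and 0.000903), and the desaturase Fads2 fell by 1.60 (adjusted p = 0.000263). Elovl1 rose by 0.42 (adjusted p = 0.00784), but not under median-of-ratios scaling or quantile normalization (adjusted p = 0.24 and 0.248, range over the alternatives 0.00135 to 0.248). Elovl6, whose substrates are saturated and monounsaturated, was thus called in the direction opposite to Elovl2 and Elovl5.

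**Figure D5:**
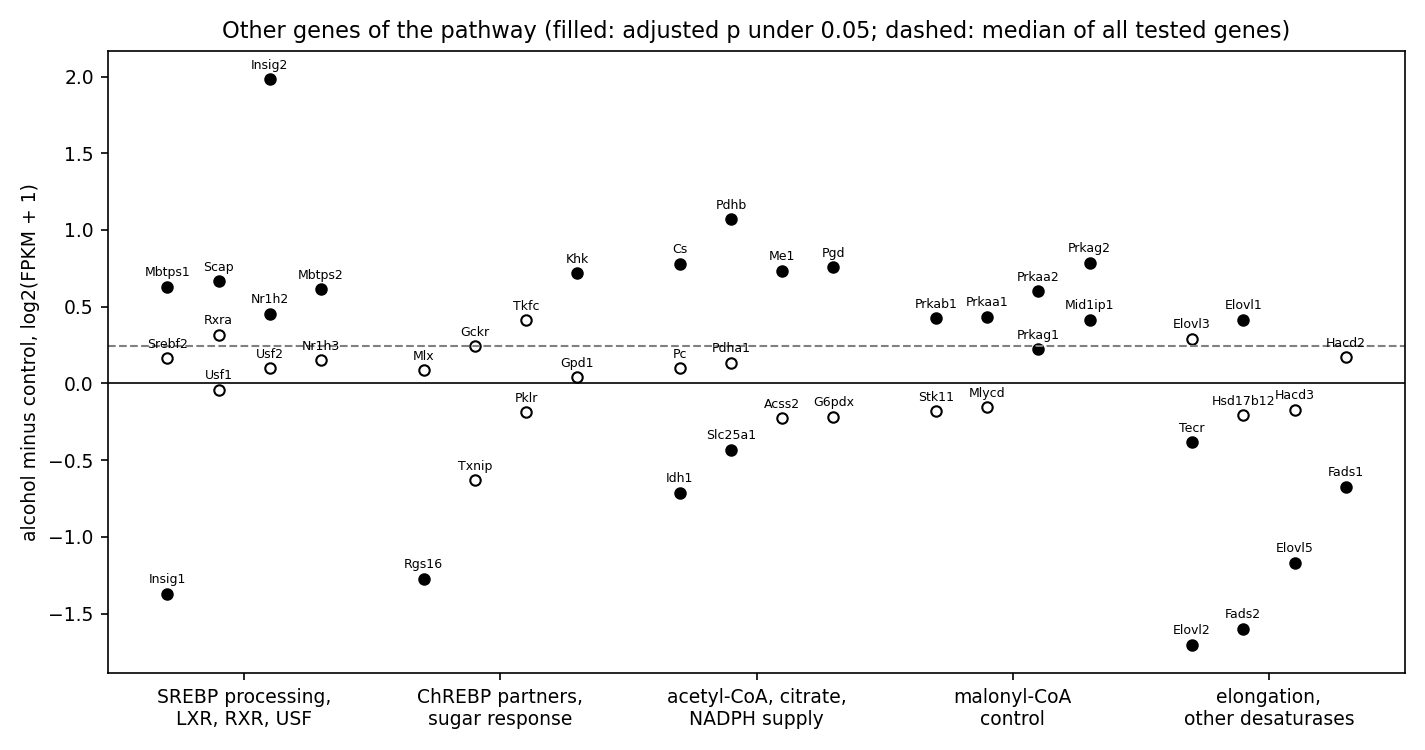
Log2 change (vertical axis, alcohol minus control on the log2(FPKM + 1) scale) of the 47 tested genes of the 5 pathway lists, filled where the adjusted p was under 0.05, with the median of all tested genes dashed at 0.24. Insig2 is highest at 1.98 and Elovl2 lowest at -1.70. Of the 47 genes 17 were called higher and 9 lower, beside 44.2% and 13.0% of all tested genes.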

How the data were processed

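Messenger RNA was sequenced from 4 control and 4 alcohol samples. The deposited values are FPKM, made by the authors, 1 column per sample, and every column was used. The submitters' processing notes name GRCm38 and mm10, while the aligner, counter, annotation and strand setting have no statement in the sources used here. Library totals and whole reads were recovered for 21048 of 21049 genes (tolerance 0.001 of a read), giving 33872595 to 38407511 reads per library. The main test was limma (version 3.58.1, R version 4.3.3) with a variance trend, fitted to log2(FPKM + 1) of the 9228 genes whose mean reached 1 FPKM, with Benjamini-Hochberg adjustment over them. The script was tested on simulated data. Ratios used FPKM with no pseudocount. Positions are from GENCODE M21 and promoters from RefSeq, both on GRCm38. Pc is listed as Pcx. The members and gene lists were chosen with earlier results of these data known. Named genes are all members, up to 4 called genes of each pathway list by smallest p (the 2 most abundant where none was called), and the leading markers. Others were chosen after their values were seen. Other pseudocounts, filters, scalings, a replicate block, left-out samples and limma voom on recovered reads were alternatives. Some genes of the carbohydrate list are not reported here, and its counts leave them out.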

Additional observations from a re-analysis of the deposited data

Results flagged for a closer look

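In 4 of 74 groups of 4 samples (37 named genes, 2 groups each) 1 sample lay far from the other 3, by Dixon's ratio of that gap to the whole range, which chance alone gives in about 1 group in 20. Acly stood at 14.5 FPKM in alcohol replicate 1, against 25.0 to 26.7 FPKM in the other alcohol samples, and Acaca at 21.1 FPKM in alcohol replicate 3, against 18.2 to 18.4 FPKM. Rgs16 stood at 119 FPKM in alcohol replicate 3, against 31.7 to 36.1 FPKM. Me1 stood at 60.8 FPKM in alcohol replicate 1, against 82.4 to 85.9 FPKM.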

How the results depend on the processing

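Srebf1, Acaca, Fasn and Elovl6 were called in the same direction under all 17 alternatives, while Mlxipl, Thrsp and Acly were called under none of them. The sign reversed for 3 uncalled members, to -0.071 for Mlxipl and -0.086 for Thrsp with median-of-ratios scaling and to 0.046 for Acly without alcohol replicate 1 (leaving out 1 sample gave -0.251 to 0.046), and the cause was not tested. Members called higher stayed at 2 and those called lower at 2 to 3 when 1 sample was left out. Over all genes 1981 were higher with a minimum of 5 FPKM (fewer genes tested), 2386 and 2446 were higher and lower with median-of-ratios scaling, and 2221 and 2307 with quantile normalization, both of which centre the samples by construction. Leaving out 1 sample gave 3537 to 4362 higher and 1000 to 1278 lower. With the replicate number as a replicate block 4307 genes were higher and 1380 lower, and Acacb (adjusted p = 0.00456) and Scd1 (adjusted p = 0.0214) were also called. Same-numbered samples correlated at 0.071 to 0.349 in their deviations from the group means, 3 of 4 pairs over 0.1. Samples of different numbers correlated at -0.425 to 0.290, and 4 of 8 samples correlated best with their own number. These values cannot decide whether the samples are paired. No label states a pairing, so the numbers were not taken to pair the samples in the main test. Each ratio's log2 difference moved by less than 1 SD, pooled over both groups, under each of its alternatives, and some moved by more than the SD of the alcohol group alone. Depth limited Pnpla3 most, with 11 to 33 reads per library.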

Other observations

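Some genes below the minimum level separated between the groups in the fit of all listed genes, and were chosen after their values were seen. Scd2, a paralog of the desaturase Scd1, had a control mean of 0.493 ± 0.105 FPKM and an alcohol mean of 1.44 ± 0.278 FPKM (SD, 4 samples each). Its log2 change was 0.70 ± 0.10 (SE), limma adjusted p = 0.00195. Mlxip, the ChREBP relative also known as MondoA, stood at 0.446 ± 0.0617 and 0.961 ± 0.228 FPKM, adjusted p = 0.00842. The AMPK subunit Prkab2 stood at 0.191 ± 0.0975 and 0.959 ± 0.0784 FPKM, adjusted p = 0.000311.

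Gm35986, annotated antisense to Elovl6 and sharing 34 exon bases with it, stood at 10.1, 9.15, 17.6 and 13.2 FPKM in control replicates 1 to 4 and at 21.8, 60.7, 32.2 and 59.5 FPKM in alcohol replicates 1 to 4, with a log2 change of 1.64 and an adjusted p of 0.00123. Its lowest alcohol sample, replicate 1, was also the lowest for Elovl6. The shared bases are 4.3% of its exon bases.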
